A study of Mus musculus with 30 samples.

Results

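The Shaker-type Kv1 potassium channel genes and their beta subunits were followed across 3 pools of spinal motoneurons. All probe sets annotated to the alpha subunit genes Kcna1, Kcna2, Kcna3, Kcna4, Kcna5 and Kcna6 and to the beta subunit genes Kcnab1 and Kcnab2 were taken. All 8 genes had a probe set, and together they had 11 of the 12422 probe sets tested, which represent 8251 named genes. Kcna5, Kcnab1 and Kcnab2 had 2 probe sets each. The probe sets of these 3 genes whose names end in _f_at can also bind related transcripts, so their values are given separately and are uncertain in that respect. The other probe set of each is called the plain one.

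Kv1 channels are voltage-gated potassium channels that open near the resting potential of a neuron and limit repetitive firing. Alpha subunits assemble to form the pore, and cytoplasmic beta subunits bind below it, change inactivation and help carry the channel along the axon. In myelinated axons the channels cluster beside the paranodes under the myelin and at the axon initial segment, and loss of KCNA1 function in humans causes episodic ataxia with continuous muscle activity.

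Transcripts were measured on microarrays after laser capture from spinal cord of 5 adult mice, all sham-operated controls. The intermediolateral column pool (IML) holds autonomic preganglionic motoneurons, and the lateral (LMN) and medial (MMN) pools hold somatic motoneurons that innervate skeletal muscle. Every animal gave all 3 pools, each pool was a bulk of 400 captures, and its RNA was divided into 2 portions, amplified in 2 rounds and hybridised to 2 arrays. There were thus 5 biological samples and 10 arrays per pool, and the number of animals limits the precision. The sham operation is common to every group, its site is not stated in the labels, and no unoperated animal was analysed here. Strain, sex and any age beyond adult are not stated. The comparisons asked how autonomic motoneurons differ from somatic ones and how the 2 somatic pools differ from each other. Values are log2 intensities, each the mean of the 2 arrays of a sample, and n counts animals. A difference was called when its adjusted p from limma, with the animal as a block and Benjamini-Hochberg adjustment over all 12422 probe sets, was under 0.05. In bulk samples, fewer cells of a type and less RNA per cell cannot be told apart.

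The labels were set against motoneuron markers, of which 9 of 12 were measured. Chat, Slc5a7 and Mnx1 have no named probe set here. The mean over the 9 markers ran between 8.16 and 8.57 in IML, between 8.54 and 9.76 in LMN and between 8.64 and 9.20 in MMN. Slc18a3, the vesicular acetylcholine transporter, averaged 7.18 ± 0.28 in IML, 8.73 ± 1.17 in LMN and 8.30 ± 1.01 in MMN (SD, n = 5 each). The LMN sample of animal 2 stood apart, with a Slc18a3 value of 7.12, the lowest in LMN, and the highest meningeal and fibroblast marker mean in LMN, 9.06. Results are also given without that sample where it changes a call.

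Between IML and the somatic mean, the average of LMN and MMN, 4 of the 11 Kv1 probe sets were called, 3 lower and 1 higher in IML, while 5.52% of all probe sets were called, 2.09% lower and 3.44% higher. Kcna1 and both probe sets of Kcnab1 were lower in IML, and 1 probe set of Kcna5 was higher. IML and somatic values overlapped in all 11, while among all probe sets 0.177% had no overlap with IML higher and 0.113% with IML lower. In 5 of the 11 the 5 animals had the same sign, beside 15.7% of all. The median difference over the 11 probe sets was -0.04, against -0.01 over all probe sets. By limma 6 of the 11 had an unadjusted p under 0.05, beside 2574 of the 12422. Kcna2, Kcna3, Kcna4, Kcna6 and Kcnab2 were not called in any of the 4 contrasts. The genes and lists were chosen with earlier results of these data known, so these counts are descriptions.

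**Figure D1:**
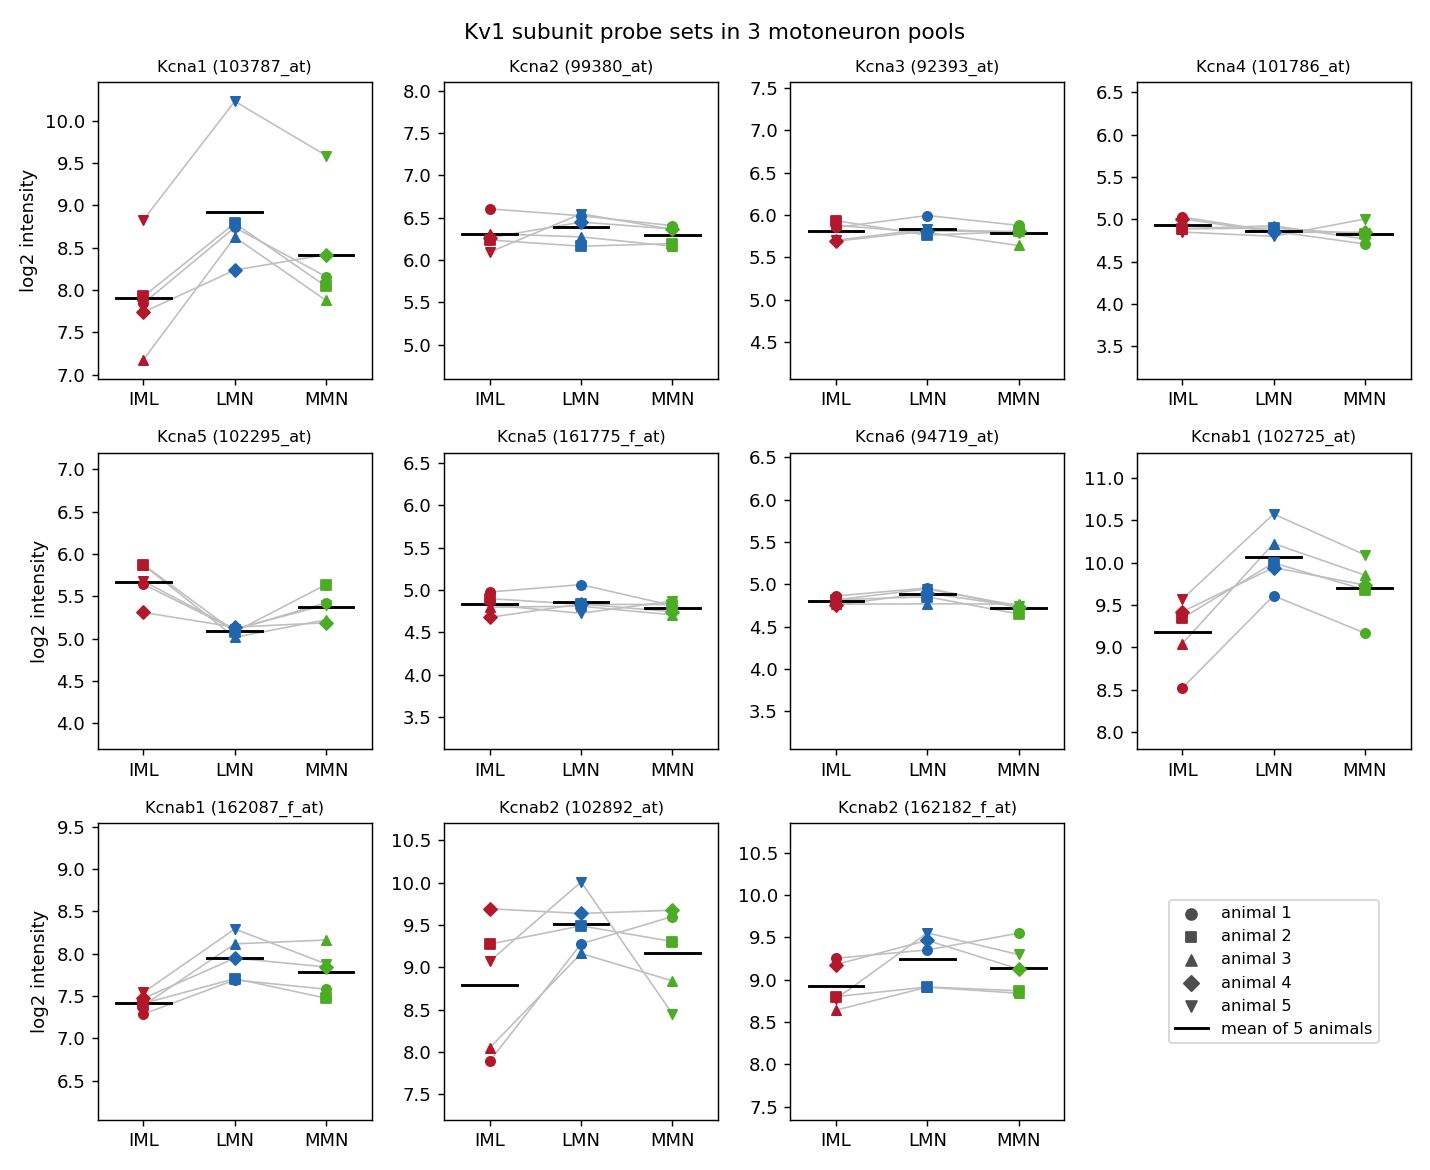
Log2 intensity (vertical axis) of the 11 Kv1 probe sets in IML, LMN and MMN (horizontal axis), with a symbol for each of 5 animals, grey lines joining the pools of an animal and a black bar at the mean. Kcna1 and Kcnab1 lie lowest in IML in each animal, and the plain Kcna5 probe set lies highest there.

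Kcna1, an alpha subunit of the juxtaparanodes of motor axons, was lower in IML. Its log2 intensity was 7.84, 7.92, 7.18, 7.74 and 8.83 in IML of animals 1 to 5. It was 8.74, 8.79, 8.62, 8.23 and 10.23 in LMN and 8.16, 8.04, 7.88, 8.42 and 9.59 in MMN. Within each animal the IML value lay below both somatic values. The groups as a whole overlapped: animal 5 was the highest in all 3 pools, its IML value exceeded every somatic value of the other animals, and the IML value of animal 2 lay above the MMN value of animal 3. IML lay 0.77 ± 0.12 below the somatic mean on the log2 scale (difference -0.77, SE, n = 5), a level 1.70-fold lower, with an adjusted p of 0.00776 from limma. The difference was lower in 5 of 5 animals, at -0.61, -0.49, -1.07, -0.59 and -1.08 in animals 1 to 5.

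Taken pool by pool, Kcna1 averaged 7.90 ± 0.60 in IML, 8.92 ± 0.76 in LMN and 8.42 ± 0.68 in MMN (SD, n = 5 each). The difference of IML from LMN was called, at -1.02 ± 0.14 with an adjusted p of 0.00254. The differences of IML from MMN (-0.51 ± 0.14, adjusted p 0.190) and of LMN from MMN (0.51 ± 0.14, adjusted p 0.204) were not called, so neighbours in the order LMN, MMN, IML were not separated by the test. Without animal 5 the difference of IML from the somatic mean was -0.69 with an adjusted p of 0.0515, and on technical set 1 alone its adjusted p was 0.0665.

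Kcna5, an alpha subunit known from heart and vascular smooth muscle, was the only Kv1 gene with a called higher value in IML among the 8. The plain probe set had 5.64, 5.87, 5.87, 5.31 and 5.68 in IML of animals 1 to 5, against 5.11, 5.08, 5.02, 5.14 and 5.11 in LMN and 5.42, 5.64, 5.22, 5.19 and 5.40 in MMN. Every IML value lay above every LMN value, and IML and MMN overlapped. IML was higher than the somatic mean by 0.44 ± 0.08 (log2, SE, n = 5), or 1.36-fold, in 5 of 5 animals, and its adjusted p was 0.0119. No detection calls were used, so whether signals this low lie above background was not measured. The differences in animals 1 to 5 were 0.38, 0.51, 0.75, 0.15 and 0.42.

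Against LMN alone the difference of this probe set was 0.58 ± 0.09 with an adjusted p of 0.00397. Against MMN it was 0.30 ± 0.09 and was not called (adjusted p 0.236), although higher in 5 of 5 animals. The LMN values lay below all MMN values, but that difference of -0.28 ± 0.09 was not called (adjusted p 0.259). The _f_at probe set of Kcna5 did not follow the plain one, with 4.98, 4.90, 4.80, 4.68 and 4.82 in IML, 5.06, 4.83, 4.81, 4.84 and 4.73 in LMN and 4.82, 4.83, 4.71, 4.74 and 4.87 in MMN. IML less the somatic mean was 0.01 ± 0.05 by it, with a 95% confidence interval of -0.10 to 0.12 and an adjusted p of 0.941. Across the 15 samples, with animal means subtracted, the 2 Kcna5 probe sets correlated at 0.06. The call for Kcna5 thus rests on 1 of its 2 probe sets. It was lost without animal 3 (0.37, adjusted p 0.0612), without animal 5 (0.45, adjusted p 0.0675) and on technical set 1 alone (adjusted p 0.0814).

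Kcna2, the usual partner of Kcna1 in juxtaparanodal channels, had 6.60, 6.24, 6.31, 6.26 and 6.09 in IML, 6.52, 6.16, 6.27, 6.45 and 6.54 in LMN and 6.40, 6.19, 6.16, 6.37 and 6.36 in MMN. The pools overlapped throughout. IML less the somatic mean was -0.04 ± 0.07, with a 95% confidence interval of -0.19 to 0.10 and an adjusted p of 0.794. The interval of these array values does not hold a difference as large as the -0.77 of Kcna1. The signal was low, at a mean of 6.33 against a median of 7.10 over probe sets, and whether it lies above background was not measured. The interval therefore sets no bound on the transcript itself, and missing the threshold does not show that the pools are equal.

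Kcna3, an alpha subunit known from T lymphocytes and microglia, had 5.85, 5.93, 5.88, 5.69 and 5.70 in IML, 6.00, 5.76, 5.79, 5.81 and 5.83 in LMN and 5.88, 5.81, 5.64, 5.81 and 5.80 in MMN. Its confidence interval between IML and the somatic mean was -0.12 to 0.12 (adjusted p 0.998). Of the microglia and macrophage markers 7 of 14 were called higher in IML with a median of 0.28, and of the T cell markers 0 of 7 were called by limma (1 at an unadjusted p under 0.05) with a median of -0.03. Their part in the Kcna3 values was not tested.

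Kcna4, the rapidly inactivating alpha subunit, had 5.03, 4.89, 4.89, 5.01 and 4.85 in IML, 4.86, 4.90, 4.92, 4.85 and 4.80 in LMN and 4.71, 4.83, 4.77, 4.85 and 5.00 in MMN. Its difference of IML from the somatic mean was 0.08 ± 0.06 (95% confidence interval -0.04 to 0.21, adjusted p 0.458). All 3 pools overlapped.

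Kcna6, an alpha subunit found with Kcna1 and Kcna2 in some axons, had 4.86, 4.82, 4.77, 4.76 and 4.82 in IML, 4.96, 4.85, 4.77, 4.90 and 4.95 in LMN and 4.73, 4.65, 4.77, 4.74 and 4.75 in MMN. The 95% confidence interval of IML less the somatic mean was -0.09 to 0.09 (adjusted p 0.992). Its LMN values did not overlap its MMN values at full precision, though animal 3 had 4.77 in both. That difference, 0.16 ± 0.05 and higher in 5 of 5 animals, was not called (adjusted p 0.224). Across all probe sets, 0.25% had no overlap with LMN higher and 0.306% with LMN lower.

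Kcnab1, the beta subunit whose variants can add fast inactivation to Kv1 channels, had the smallest adjusted p of the set and was lower in IML by both probe sets. The 3 RefSeq promoter windows of Kcnab1 in build GRCm38.p6, each 250 bases before to 50 after an annotated start, are shown because they are separate annotated starts of the gene, and the Kcna5 window because Kcna5 was the member that differed the other way. Capitals mark a GC box, searched as GGGCGG on either strand (CCGCCC on the other).
Kcnab1, chr3:64948962-64949261 (+): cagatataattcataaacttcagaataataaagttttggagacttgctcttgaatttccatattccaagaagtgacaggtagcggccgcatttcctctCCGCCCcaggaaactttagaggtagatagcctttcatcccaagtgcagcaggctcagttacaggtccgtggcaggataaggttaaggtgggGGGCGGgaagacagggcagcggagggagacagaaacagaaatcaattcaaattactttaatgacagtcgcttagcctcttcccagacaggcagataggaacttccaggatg
Kcnab1, chr3:65108764-65109063 (+): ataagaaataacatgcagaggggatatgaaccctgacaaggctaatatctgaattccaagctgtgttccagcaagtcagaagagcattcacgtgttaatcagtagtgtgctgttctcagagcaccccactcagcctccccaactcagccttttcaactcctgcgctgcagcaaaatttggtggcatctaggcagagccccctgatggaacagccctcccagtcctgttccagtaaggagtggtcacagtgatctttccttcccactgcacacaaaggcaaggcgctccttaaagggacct
Kcnab1, chr3:65187853-65188152 (+): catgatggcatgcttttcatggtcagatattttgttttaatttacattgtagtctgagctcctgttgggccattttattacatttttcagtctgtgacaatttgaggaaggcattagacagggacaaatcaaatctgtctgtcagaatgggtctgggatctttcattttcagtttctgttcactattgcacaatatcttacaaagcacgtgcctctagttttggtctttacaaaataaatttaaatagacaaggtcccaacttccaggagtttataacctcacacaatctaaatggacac
Kcna5, chr6:126535506-126535805 (-): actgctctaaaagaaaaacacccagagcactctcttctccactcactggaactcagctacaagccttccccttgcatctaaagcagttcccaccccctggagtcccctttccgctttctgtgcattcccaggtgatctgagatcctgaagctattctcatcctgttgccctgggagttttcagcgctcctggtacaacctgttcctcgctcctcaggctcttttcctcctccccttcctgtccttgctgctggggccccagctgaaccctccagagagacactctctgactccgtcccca

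Of 11 windows of 7 member genes, 5 held a GC box, as did 35.7% of all 32851 windows, and 9 held an E-box (CANNTG), as did 72.3% of all. The first Kcnab1 window held 2 GC boxes, and the other 2 Kcnab1 windows and the Kcna5 window held 0. GC content was 46.67%, 50.33% and 36.67% in the Kcnab1 windows and 55% in the Kcna5 window, around a median of 52.67% over all windows. Which start was used was not measured, and a match in a window is a description only. Kcna1 had no window in the table. In the same RefSeq assembly, Kcna5, Kcna1 and Kcna6 are adjacent protein-coding genes on chromosome 6, so the called gene that was higher and the called alpha subunit that was lower are neighbours.

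The plain probe set of Kcnab1 had 8.52, 9.34, 9.04, 9.42 and 9.57 in IML of animals 1 to 5, against 9.61, 10.00, 10.23, 9.94 and 10.57 in LMN and 9.17, 9.68, 9.85, 9.74 and 10.09 in MMN. Every IML value lay below every LMN value, and IML overlapped MMN. IML was lower than the somatic mean by 0.71 ± 0.08 (difference -0.71, log2, SE, n = 5), a level 1.63-fold lower, with an adjusted p of 0.00105. All 5 animals showed the direction, at -0.87, -0.49, -0.99, -0.42 and -0.76. The _f_at probe set had 7.29, 7.41, 7.39, 7.47 and 7.54 in IML, 7.69, 7.70, 8.11, 7.95 and 8.29 in LMN and 7.58, 7.47, 8.16, 7.84 and 7.88 in MMN. It too had no overlap between IML and LMN, and was lower in IML by 0.45 ± 0.08 (difference -0.45, adjusted p 0.00964) in 5 of 5 animals. Without animal 5 this second call was lost, at -0.42 with an adjusted p of 0.0510.

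Against LMN, 4 Kv1 probe sets were called, 1 higher and 3 lower in IML, beside 8.98% of all probe sets (5.46% higher and 3.53% lower). In 6 of the 11 the 5 animals had the same sign, beside 20.7% of all probe sets. The 4 called were the same 4 as against the somatic mean, a contrast that shares the IML and LMN samples. Of the 11, 3 had no overlap between IML and LMN, 1 higher and 2 lower in IML, beside 2.11% of all probe sets higher and 1.13% lower. The 2 Kcnab1 probe sets differed from LMN by -0.89 ± 0.09 (adjusted p 0.000599) and -0.53 ± 0.09 (adjusted p 0.00550). Against MMN, 1 of the 11 was called, lower in IML, beside 0.346% of all probe sets (0.113% lower). It was the plain Kcnab1 probe set, at -0.53 ± 0.09 with an adjusted p of 0.0345, lower in 5 of 5 animals though the groups overlapped. Of the 11, 4 had the same sign in 5 animals, beside 9.36% of all probe sets. The Kcnab1 call was lost when any 1 animal was left out (adjusted p 0.0600 to 0.198), and without the LMN sample of animal 2 (adjusted p 0.0633), the LMN sample of animal 5 (adjusted p 0.0626) or the MMN sample of animal 5 (adjusted p 0.0913). The difference lay between -0.58 and -0.46 in these fits.

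**Figure D2:**
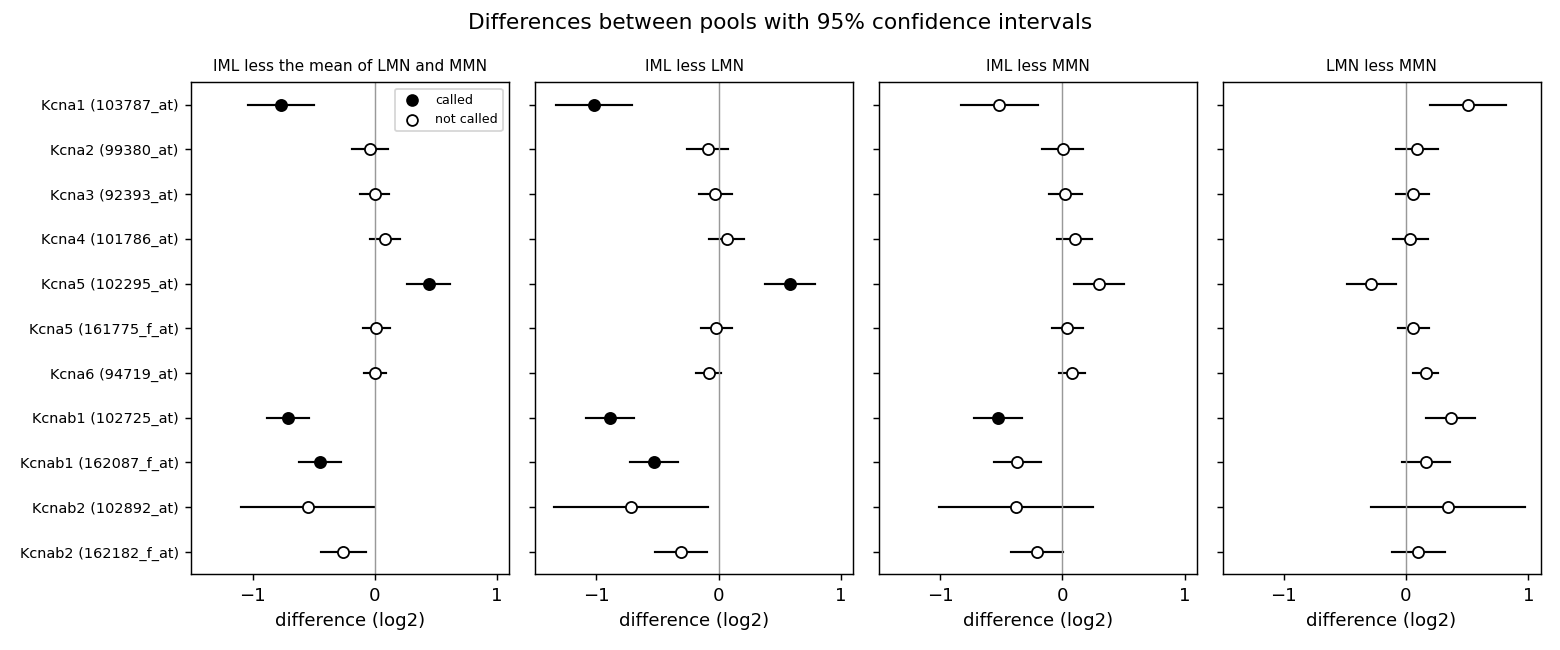
Difference in log2 intensity (horizontal axis) with 95% confidence intervals for the 11 Kv1 probe sets (rows) in 4 contrasts, filled where called. Kcna1, Kcnab1 and the plain Kcna5 probe set stand away from 0 between IML and the somatic mean, and the others have intervals that hold 0 except those of both Kcnab2 probe sets, which were not called.

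Between LMN and MMN, 0 of the 11 were called by limma, beside 0.0564% of all probe sets (0.0242% higher and 0.0322% lower), and 4 of the 11 had an unadjusted p under 0.05, beside 1447 of the 12422. Kcnab1 by its plain probe set was 0.36 ± 0.09 higher in LMN in 5 of 5 animals (adjusted p 0.165). In a fit of these 2 pools alone it was called, at 0.36 with an adjusted p of 0.0489. The _f_at probe set differed by 0.16 (adjusted p 0.517). Of the 11, 3 had the same sign in 5 animals, beside 14.7% of all probe sets.

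Kcnab2, the beta subunit that promotes axonal targeting of Kv1 channels and carries no inactivation domain, was not called. Its plain probe set had 7.89, 9.27, 8.05, 9.69 and 9.07 in IML, 9.28, 9.49, 9.16, 9.64 and 10.01 in LMN and 9.60, 9.30, 8.84, 9.67 and 8.45 in MMN. Its IML values spread widely, with animals 1 and 3 below all somatic samples and animal 4 above most. The difference from the somatic mean was -0.55 ± 0.25 (95% confidence interval -1.09 to -0.00275, adjusted p 0.239), at -1.55, -0.12, -0.95, 0.04 and -0.16 in animals 1 to 5.

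The _f_at probe set of Kcnab2 had 9.25, 8.80, 8.64, 9.18 and 8.77 in IML, 9.35, 8.91, 8.91, 9.46 and 9.55 in LMN and 9.55, 8.87, 8.84, 9.12 and 9.30 in MMN. It lay 0.26 ± 0.08 below the somatic mean (difference -0.26, 95% confidence interval -0.44 to -0.07) in 5 of 5 animals, with an adjusted p of 0.101. The low IML value of animal 1 by the plain probe set did not recur, as its 9.25 was the highest IML value here. Animal 3 had the lowest IML value here, 8.64. Its difference from the somatic mean was -0.23, against -0.95 by the plain probe set.

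The paired arrays show how far 2 readings of a sample can differ. For the plain Kcnab2 probe set in the MMN sample of animal 5, the 2 arrays read 153.143 and 801.843 intensity units, 2.39 apart on the log2 scale and the largest such gap in the set. Without that sample the difference of IML from the somatic mean was -0.69 (adjusted p 0.0849) and that of LMN from MMN was 0.06, against 0.34 with it. For Kcna1 the widest gap was 1.36, in the same sample, with 480.783 and 1230.1 intensity units. The SD of a single array, from the paired arrays, was 0.44 for Kcna1, 0.29 for Kcnab1 and 0.13 for Kcna5 by their plain probe sets. The SD between animals within a pool was 0.68, 0.37 and 0.17 for these probe sets. The latter was taken on means of 2 arrays, so these SDs do not give the technical share of the spread directly.

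**Figure D3:**
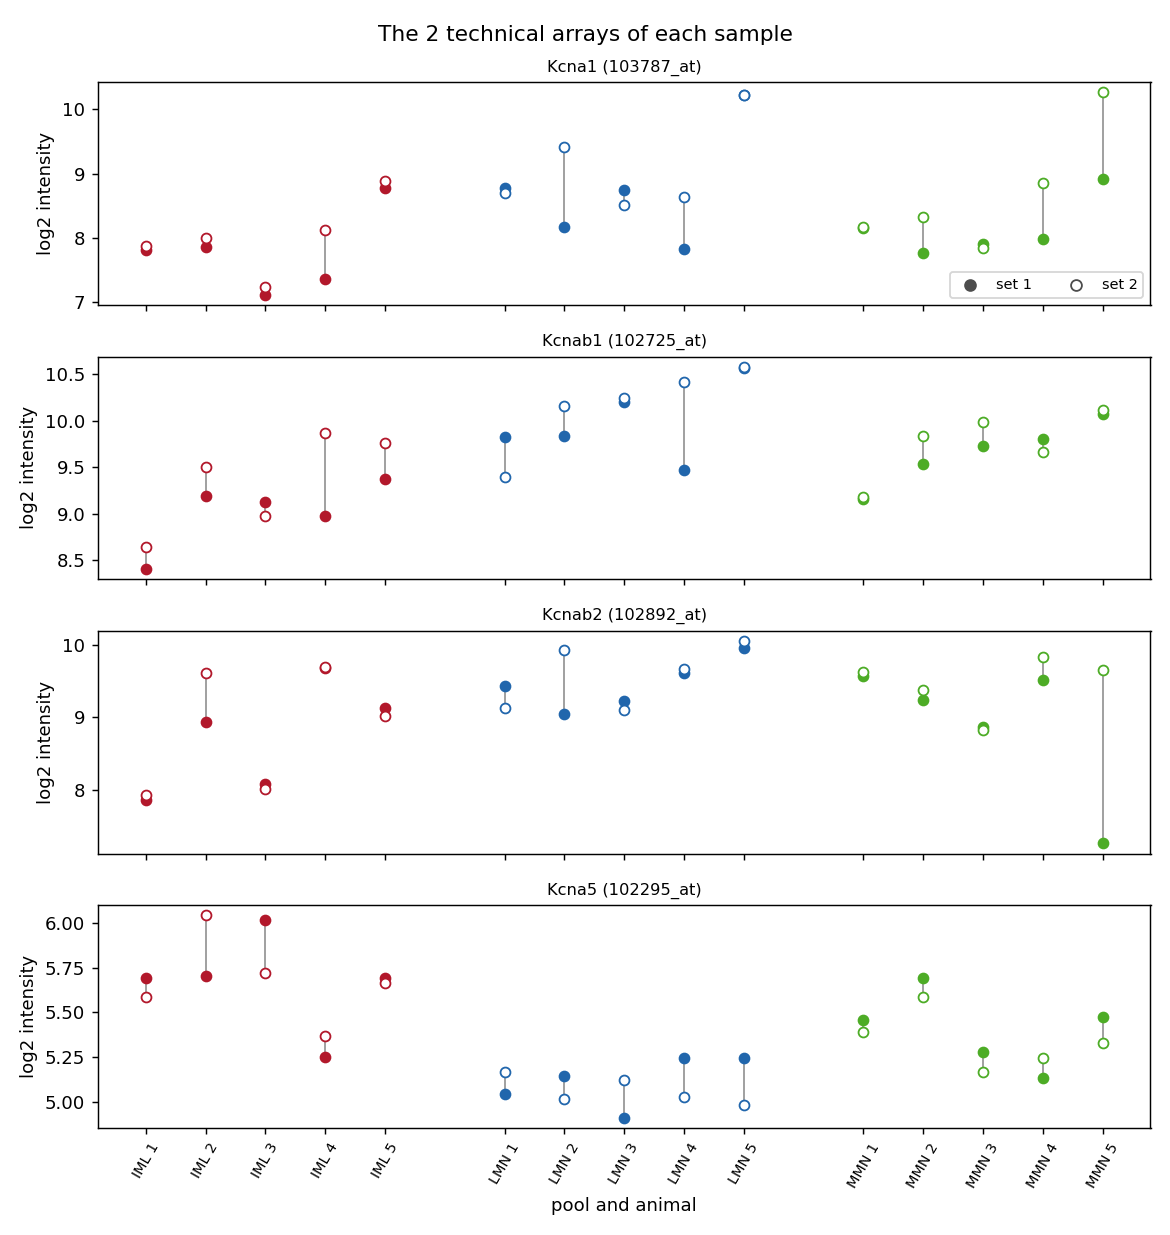
Log2 intensity (vertical axis) of the 2 technical arrays of every sample (horizontal axis: pool and animal) for 4 probe sets, filled for set 1 and open for set 2, joined by a line. The widest gap, 2.39, is that of Kcnab2 in the MMN sample of animal 5.

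The probe sets called between IML and the somatic mean were also set against each other across samples. Over the 15 samples with animal means subtracted, Kcna1 correlated at 0.94 with Kcnab1 and at -0.93 with Kcna5, and Kcna5 correlated at -0.93 with Kcnab1, all by the plain probe sets. Without subtracting animal means, these 3 correlations were 0.74, -0.49 and -0.68. With animal means subtracted, Kcna1 correlated with the 2 Kcnab2 probe sets at 0.61 and 0.68, and with Kcna2 at 0.41. These correlations describe 15 samples that share animals, pools and normalization, and carry no p. The called probe sets were picked for their pool differences, which enter these correlations, so the correlations add no separate evidence. By the same measure, among the brighter genes (means no lower than 7.10, the median over probe sets), those most like Kcna1 were Ccdc186 (0.945), Bcat1 (0.943), Kcnab1 (0.940), Clvs1 (0.920) and Ryr2 (0.910). Those most like Kcnab1 were Bcat1 (0.970), the neurofilament gene Nefh (0.970), Flt3 (0.967), Bnip3 (0.963) and Clvs1 (0.958). Those most like the plain Kcna5 probe set were Twsg1 (0.953), Cpxm2 (0.952), Fmod (0.946), Lima1 (0.939) and Pdgfra (0.931).

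Marker lists were also compared between IML and the somatic mean. Of the 9 measured motoneuron markers, 5 were called lower in IML than in the somatic mean and 0 called higher. By sign alone 8 were lower and 1 higher, with a median of -0.72. The 1 higher was Isl1, at 0.14 ± 0.09 (adjusted p 0.404). The list was chosen with earlier results of these data known, so its direction is a description. Those called included Nefh at -0.83 ± 0.09 (adjusted p 0.00105) and Bcl6 at -1.17 ± 0.20 (adjusted p 0.0103). Slc18a3 was not called, at -1.33 ± 0.36 (adjusted p 0.0579). Of the 12 meningeal and fibroblast markers, all 12 had a higher mean in IML, with a median of 1.03, and 6 of them were called. Those called included Igf2 at 1.18 ± 0.21 and Col1a1 at 1.28 ± 0.23 (adjusted p 0.0112 for each). Their mean level ran between 8.82 and 9.97 in IML, between 7.46 and 9.06 in LMN and between 8.09 and 9.90 in MMN. No marker value is 0 on this array scale.

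Of 12 endothelial and mural markers, 9 had a higher mean in IML and 1 was called, Vwf, higher in IML by 1.30 ± 0.29 (adjusted p 0.0269). The smooth muscle markers Acta2 (0.38), Tagln (0.11) and Myh11 (0.08) were not called against the somatic mean. For these markers in that order, IML less LMN was 1.66, 0.44 and 0.56, and IML less MMN was -0.90, -0.22 and -0.40. LMN less MMN was -2.56, -0.65 and -0.96, lower in 5 of 5 animals for each. None of these pool differences was called. Against the somatic mean again, 9 of 10 oligodendrocyte markers had a higher mean in IML and 1, Gsn, was called. Of 8 astrocyte markers 5 had a higher mean in IML and 1, Fabp7, was called. Of 5 interneuron markers 0 were called by limma (2 at an unadjusted p under 0.05, beside 2574 of all 12422 probe sets). With the meningeal and fibroblast mean as a covariate, the differences were -0.43 for Kcna1, 0.36 for Kcna5, and -0.61 and -0.16 for the Kcnab1 probe sets, none called, with adjusted p between 0.561 and 0.869. The standard errors in that fit were, in the median, 1.99 times those without the covariate, and 0 of 12422 probe sets were called by limma while 776 had an unadjusted p under 0.05. With Slc18a3 as a covariate the differences were -0.70, 0.55, -0.62 and -0.40, none called, with adjusted p between 0.0899 and 0.217. Of the 11 Kv1 probe sets, 2 had an unadjusted p under 0.05 in the first of these fits and 4 in the second. In the second, 1482 of all 12422 probe sets had an unadjusted p under 0.05 by limma. The part of these markers in the Kv1 results was not tested.

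**Figure D4:**
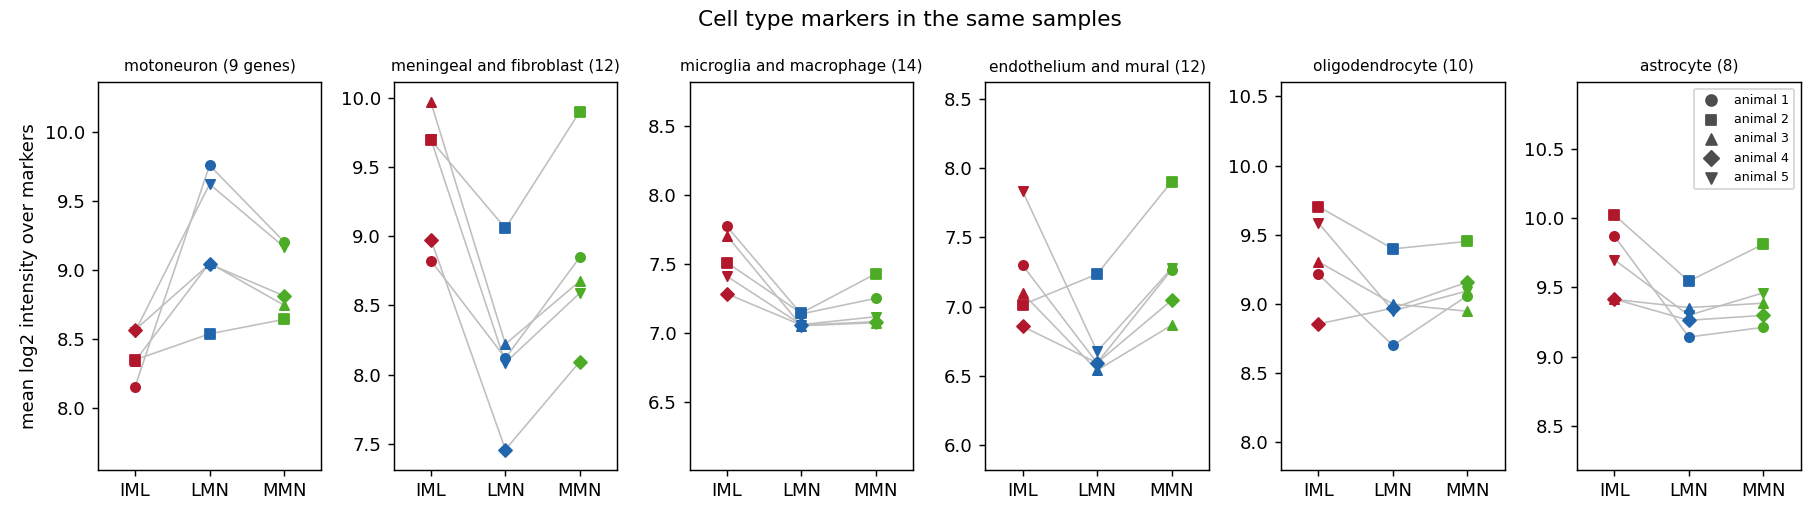
Mean log2 intensity over the markers of 6 cell types (vertical axis) in IML, LMN and MMN (horizontal axis), with a symbol for each of 5 animals and lines joining the pools of an animal. The motoneuron mean is lowest in IML and the meningeal and fibroblast mean is higher in IML than in LMN in each animal.

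Genes that act with Kv1 channels were counted from lists of the pathway, taking for each gene its brightest probe set. The list counts at an unadjusted p under 0.05 stand beside 2574 of all 12422 probe sets by limma between IML and the somatic mean. The other Kv1 relatives had 2 of 3 genes measured and 0 called by limma between IML and the somatic mean, with 1 at an unadjusted p under 0.05. Kcnab3, another beta subunit gene, lay at -0.25 ± 0.07 (adjusted p 0.0702) and was lower in 5 of 5 animals, and Kcna7 at 0.0067 (adjusted p 0.972).

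Of the proteins that cluster Kv1 channels in axons, 8 of 17 genes were measured, and 1 was called higher in IML and 0 called lower. Over all probe sets 3.44% were called higher and 2.09% lower. At an unadjusted p under 0.05 by limma there were 4, with Dlg1 higher and Dlg4, Adam23 and Sptan1 lower. By sign alone 4 were higher and 4 lower. Dlg1, a scaffold that binds the channel tail, was higher by 0.31 ± 0.08 (adjusted p 0.0375) in 5 of 5 animals. Its relative Dlg4 lay at -0.21 ± 0.06 (adjusted p 0.0791), Adam23, a receptor for secreted LGI proteins, at -0.38 ± 0.11 (adjusted p 0.0648) and Sptan1, a spectrin, at -0.45 ± 0.15 (adjusted p 0.110). Against LMN alone Dlg1 was higher in IML at 0.41 ± 0.09 (adjusted p 0.0158), and Dlg4 was lower at -0.27 ± 0.07 (adjusted p 0.0433). The juxtaparanodal adhesion genes Cntnap2 and Cntn2 have no named probe set here.

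Of the paranodal and nodal adhesion genes, 6 of 9 were measured and 0 were called by limma against the somatic mean, with 1 at an unadjusted p under 0.05. Epb41l1, a cytoskeletal linker, lay at -0.17 ± 0.05 (adjusted p 0.0988), and was lower against LMN alone at -0.27 ± 0.06 (adjusted p 0.0216). Epb41l2, a relative of Epb41l1, lay at 0.10 (adjusted p 0.408). Cntnap1, the paranodal Caspr gene, lay at -0.08 (adjusted p 0.453). Of the enzymes and proteins reported to regulate Kv1 trafficking or gating, 11 of 12 were measured and 0 were called by limma, with 3 at an unadjusted p under 0.05 and a median of 0.06. The smallest p among them was that of Ptk2b, a tyrosine kinase, at 0.22 ± 0.07 (adjusted p 0.115).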

How the data were processed

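The members and gene lists were chosen with earlier results of these data known. The authors deposited linear intensity values, which per the labels are inverse logs of signals normalized with R-pack. How R-pack was run is not stated, and no detection calls were used. From the 12488 probe sets 66 controls were left out. Symbols came from the platform annotation, updated through gene identifiers from RefSeq (GRCm38.p6) for 10817 probe sets; of those tested, 10833 had 1 symbol, 396 several and 1193 none. The log2 of the deposited intensities, without an offset, was averaged over the 2 arrays of each sample, giving 15 samples from 30 arrays. Array medians ran between 131.69 and 145.908, and paired arrays correlated at 0.983 to 0.998.

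The fits used limma 3.58.1 under R 4.3.3 with fixed terms for pool and animal, then eBayes. Tests were two-sided. The labels state that every animal gave all 3 pools, and samples of an animal deviated together in all 15 of 15 pairs of samples (r 0.288 to 0.747). The steps were also run on simulated data, with noise independent between probe sets and no differences in the mix of captured cells. That run concerns the steps alone and says nothing about the calls made here. Every member probe set was described. From each list, members with the smallest p were named, up to 4, and the 5 genes most like each called member. The genes outside that rule, Slc18a3, Isl1, Acta2, Tagln and Myh11, were named after their values were seen. The alternatives changed the block, the technical set, the scaling, the filter, the floor, the variance model, the covariate, the pools fitted and the animals.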

Additional observations from a re-analysis of the deposited data

Results flagged for a closer look

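Kcna1 in LMN was flagged because 1 sample lay far from the others of its group. Animal 5 had a log2 intensity of 10.23 there, and the nearest of the other LMN samples, animal 2, had 8.79. The gap was 0.723 of the range of the group, above the critical value of 0.71 for 5 samples. Chance flags about 1 group in 20, and this was 1 of 33 groups of 5 samples looked at over 11 probe sets and 3 pools. Its 2 arrays read 1199.63 and 1197.16 intensity units. Without this LMN sample the Kcna1 difference was -0.96 between IML and LMN (adjusted p 0.0110) and -0.74 between IML and the somatic mean (adjusted p 0.0170), both still called.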

How the results depend on the processing

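Over the 4 contrasts the member differences were refitted 845 times under 20 alternatives, of which 2, leaving out the MMN or the LMN sample of animal 5, were chosen after seeing the data. Of these, 799 stayed on the same side of the threshold with their direction where called, 45 lost a call and 1 gained a call. Most of the 799 were differences uncalled in the main fit that stayed uncalled. Against the somatic mean, Kcna1 kept its call in 14 of 19 alternatives, Kcna5 in 12 of 18 and Kcnab1 in 16 and 15 of 19. Against LMN each of these kept it in 17, of 19 alternatives for Kcna5 and 20 for the others. Against MMN the Kcnab1 call was kept in 4 of 20. No called difference changed sign, and 47 uncalled ones did. The count of called Kv1 probe sets between IML and the somatic mean, 4, was 0 with no replicate block, 2 on technical set 1 alone, and 0 with either covariate. At an unadjusted p under 0.05 there were 4 with no block, 2 with the meningeal and 4 with the Slc18a3 covariate. Over all 12422 probe sets those fits had 1303, 776 and 1482 at an unadjusted p under 0.05 by limma. Leaving out each animal gave 1 to 4 Kv1 calls, with 1 without animal 5 and 3 without animal 3. The count between IML and LMN, 4, was 1 with no replicate block and 0 with either covariate. The count between IML and MMN, 1, was 0 with no replicate block, a random block, either technical set, the floor of 32, only the 2 pools, either covariate, each animal left out (0 to 0), and without the LMN sample of animal 2 or animal 5 or the MMN sample of animal 5. The count between LMN and MMN, 0, was 1 with only the 2 pools fitted. Over all probe sets, 686 between IML and the somatic mean became 46 with no replicate block, 304 on set 1 alone, 282 with the floor of 32, 0 with the meningeal covariate and 10 with Slc18a3, and ran between 164 and 650 with an animal left out. The pairing by animal made the standard errors smaller: with no replicate block they were, in the median, 1.43 times those with it, and the adjusted p was 0.422 for Kcna1, 0.0512 for Kcna5 and 0.121 and 0.115 for Kcnab1. Otherwise the cause was not tested. The filter on dim probe sets left out Kcna2 to Kcna6, and a fit of 2 pools gives no value against the somatic mean. The 5 animals, 2 rounds of amplification and the absence of detection calls limit what the dim Kcna2 to Kcna6 values can show.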
